A study of Canis lupus familiaris with 3 samples.

Results

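The genes described here are the ion channels, ion pumps and aquaporins on an array of human cDNA clones, the CNIO Oncochip. They were chosen by gene symbol alone: potassium, sodium, calcium, chloride, TRP and ligand-gated channels, the pumps of the ATP1, ATP2 and ATP6 families with the FXYD proteins, aquaporins and the mitochondrial porin VDAC1. The rule found 67 genes on 176 spots. Of these, 58 had a value on all 3 arrays and were tested, out of 5508 named genes in all. The cells were MDCK, an epithelial line from dog kidney. MDCK-E47 transfectants, which carry the helix-loop-helix factor E47, were compared with MDCK-CMV control cells. Both were grown in the same medium with serum and antibiotics. The labels name neither the promoter that drives E47 nor whether the transfectants are 1 clone.

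On each of 3 arrays, E47 RNA in 1 dye competed with MDCK-CMV RNA in the other, and the value of a spot is the log2 ratio of E47 over control. RNA extraction 1 was used on 1 array, with E47 in Cy5. Extraction 2 was used on 2 arrays, in Cy3 on one and in Cy5 on the other for E47, and these were averaged, so n = 2 extractions. No label says that the extractions came from separate cultures, so p-values measure the spread between these RNA samples, which may be technical. Extraction 1 has no dye swap, so this spread also holds any effect of the dye, and the mean is not balanced for dye. The direction of the ratio is likely rather than stated. It rests on E47 being channel 1 in every label and on the series title, which names E47 as a repressor of E-cadherin. The E-cadherin gene CDH1 was at −3.59 (adjusted p = 0.0194). TCF3, which encodes E47, was at −0.29 (adjusted p = 0.118), and its human clones are not known to overlap the introduced cDNA. No label gives the log base, which was read as 2. A ratio has no intensity behind it here, so the values say nothing about whether a channel is expressed at all.

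In a kidney tubule the sodium pump of the basolateral membrane keeps cell sodium low, and this gradient drives sodium, potassium, chloride and water across the epithelium through channels, carriers and aquaporins. The pump has a catalytic alpha subunit and a beta subunit that brings it to the membrane, and small FXYD proteins tune its activity. Proton pumps of the V type acidify endosomes and lysosomes, and in some tubule cells also the urine. Voltage-gated sodium channels and glutamate or GABA receptors are best known from neurons.

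Several parts of this machinery differed in E47 cells: a sodium channel subunit, a sodium pump subunit, an ATP-gated channel and a proton pump subunit rose, and an aquaporin, an FXYD protein and a potassium channel fell. As RNA of whole cultures was measured, fewer cells of a type and less RNA per cell cannot be told apart. SCN9A, ATP1B1, P2RX4 and ATP6V1A were higher, and FXYD3, AQP3 and KCNK1 were lower. In all, 7 of 58 members (12.1%) passed limma at an adjusted p under 0.05, against 9.19% of the 5508 named genes. Of the members 4 (6.90%) were higher and 3 (5.17%) lower, against 5.34% and 3.85% of named genes. The share of members that passed was therefore near that of the whole array. The median log2 ratio was 0.0094 over the members and −0.0167 over all named genes. The median size of the ratio, sign left out, was 0.18 for members and 0.20 for named genes. Without the Cy5 array of extraction 2 only SCN9A, AQP3 and FXYD3 passed, when 1.98% of named genes did. Without the Cy3 array of extraction 2, 11 members passed, when 16.7% of named genes did.

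Of the members, 15 were above 0 on all 3 arrays, 20 were below 0 on all 3 and 23 had mixed signs. The 35 members with 1 sign made up 60.3%, against 63.3% of named genes. A further 13 members, 6 higher and 7 lower, had an unadjusted p under 0.05 and did not pass after adjustment. With them 20 members (34.5%) were at an unadjusted p under 0.05, against 35.6% of named genes. For 46 of the 51 members that did not pass, the 95% interval of the ratio lay within 2-fold either way. This was not counted over all named genes, and the intervals borrow from the spread of all features. The intervals of KCNT2, ATP6V1C1, ATP2B4, TRPV2 and SCNN1D reached past 2-fold.

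**Figure D1:**
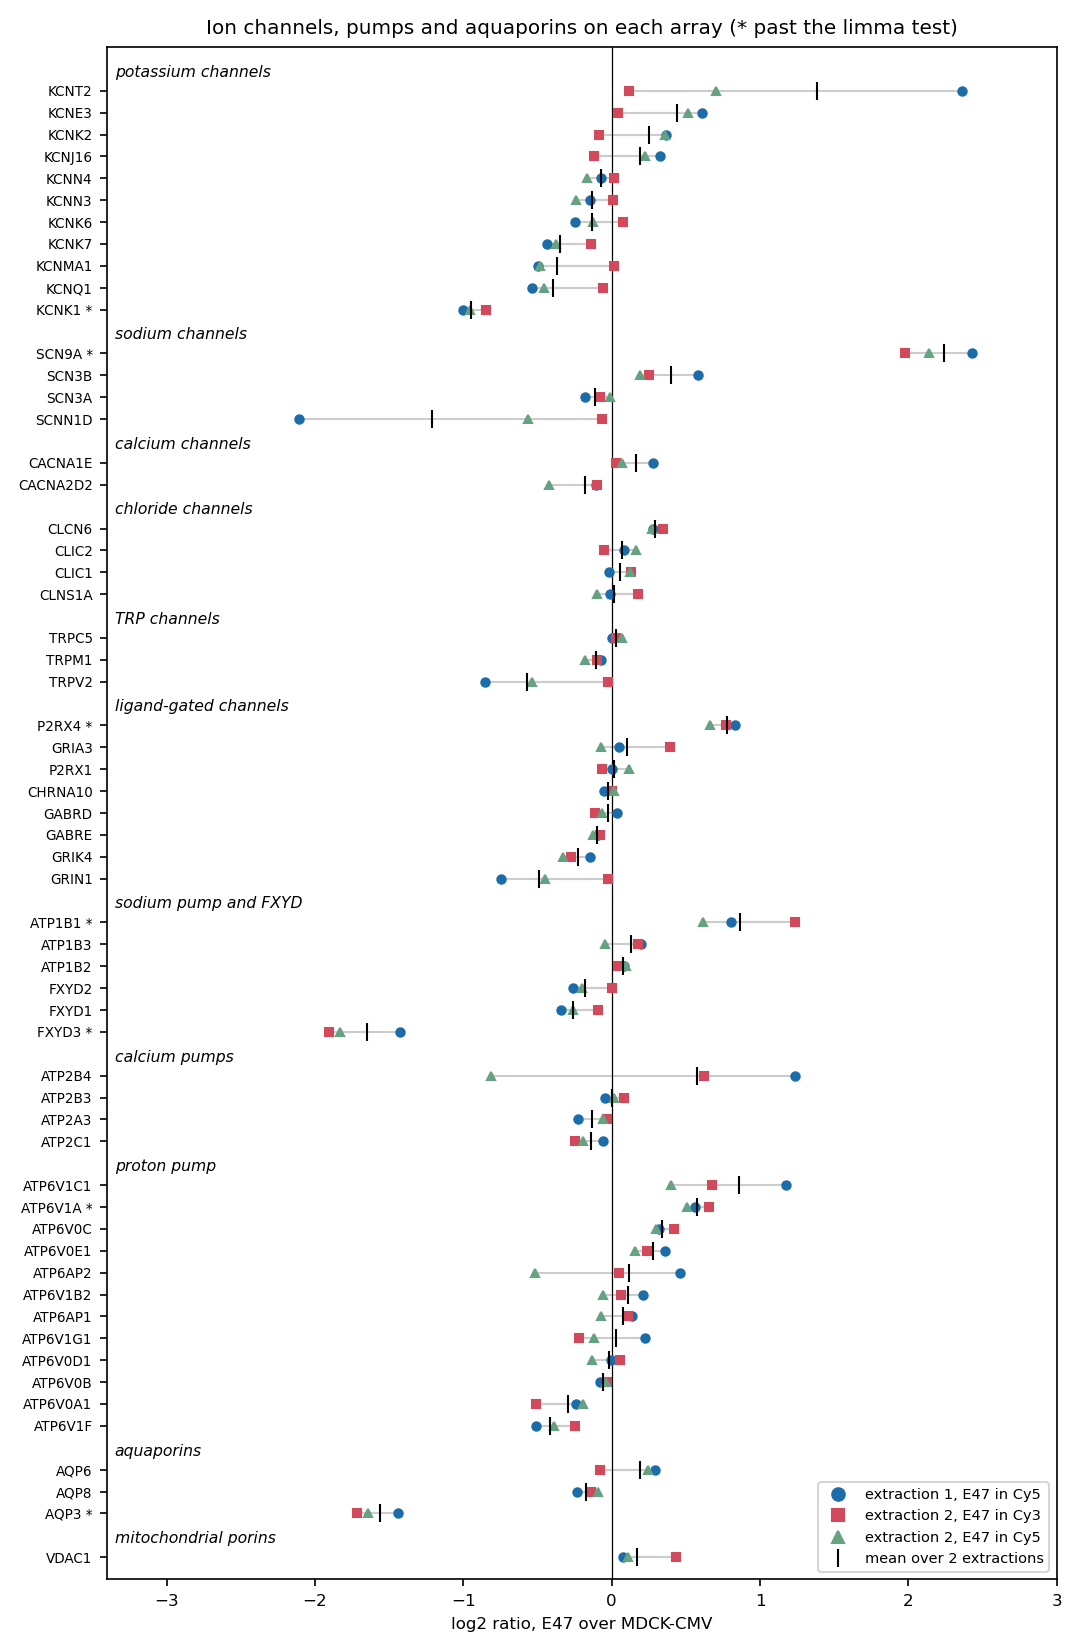
Log2 ratio of E47 over MDCK-CMV (x axis) for the 58 members (y axis), grouped by role, with 1 point per array, a black tick at the mean over 2 extractions and a star on the 7 that passed limma. SCN9A stands apart at 2.24 and FXYD3 and AQP3 at −1.65 and −1.56.

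Among the sodium channels SCN9A had the largest ratio of any member. It encodes a pore-forming alpha subunit of a voltage-gated sodium channel, known from sensory neurons. The arrays gave 2.43 for extraction 1, and 1.98 with E47 in Cy3 and 2.14 with E47 in Cy5 for extraction 2. All 3 arrays were high and the dye swap differed by 0.16. The mean was 2.24 ± 0.13 (moderated SE, n = 2 extractions), which is 4.73-fold higher in E47 cells, with a 95% interval of 3.68-fold to 6.09-fold (adjusted p = 0.0194). The moderated SE borrows from the spread of all features, and the SD of SCN9A between its own extractions was 0.26. It ranked 11 from the top among 5508 named genes, or 11 from the bottom if the ratio runs the other way. Its spots, 2 copies of 1 clone, gave 2.53 and 2.33 in extraction 1, 1.94 and 2.01 with E47 in Cy3, and 2.05 and 2.22 with E47 in Cy5. Read as a natural logarithm the same mean would be 9.42-fold. Sodium channel genes are alike in sequence, and a human clone can bind related dog transcripts.

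The other sodium channel members did not pass. SCN3A, another alpha subunit, was at −0.11 (adjusted p = 0.422), and its arrays lay between −0.18 and −0.0104. Its value for extraction 1 joined spots at 0.0706, 0.0713 and −0.68, so the sign there rested on 1 spot. SCN3B, a small beta subunit that modulates the pore, was above 0 throughout, at 0.58, 0.25 and 0.19 for extraction 1, then extraction 2 in Cy3 and in Cy5 (adjusted p = 0.132). SCNN1D encodes the delta subunit of the epithelial sodium channel, the amiloride-sensitive channel of absorbing epithelia. Its arrays gave −2.11 for extraction 1, −0.0628 for extraction 2 in Cy3 and −0.57 for extraction 2 in Cy5. Its mean was −1.21, and the 95% interval ran from −2.56 to 0.14 (adjusted p = 0.179). Extraction 1 alone carried most of this value, so the difference between extractions was larger than the mean.

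Among 11 potassium channel genes in the limma test, 1 was lower, 0 were higher and 10 did not pass. Before adjustment, 4 were lower and 1 higher at p under 0.05, when 35.6% of all named genes were at such a p in either direction and 9.19% passed. Whether these channels lean to one side was not tested. KCNK1, a channel of the family with paired pore domains that sets resting potassium conductance, fell. Its arrays gave −1.0 for extraction 1, −0.85 for extraction 2 in Cy3 and −0.95 for extraction 2 in Cy5. All arrays were low and close together. The mean of −0.95 ± 0.09 (moderated SE, n = 2) is 1.93-fold lower in E47 cells (adjusted p = 0.0246). Its 4 spots agreed less well on 1 array: with E47 in Cy5, extraction 2 gave −0.54, −0.54, −1.31 and −1.42. Every single spot value was below 0. Without the Cy5 array of extraction 2 its adjusted p was 0.0585.

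Relatives of KCNK1 did not pass. KCNK2, KCNK6 and KCNK7 were at 0.25, −0.14 and −0.34. KCNK7 had 2 clones, at −0.0102 and −0.68. KCNT2, a sodium-activated potassium channel, had the second highest mean of all members at 1.38 (adjusted p = 0.166). Its values were 2.36 for extraction 1, 0.12 for extraction 2 in Cy3 and 0.70 for extraction 2 in Cy5. A single spot carried these values, because its duplicate was empty on 1 array. Extraction 1 stood far above extraction 2.

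KCNQ1 encodes the alpha subunit of a voltage-gated potassium channel of epithelia and heart, and KCNE3 an accessory subunit that keeps that channel open. KCNQ1 was at −0.40 (adjusted p = 0.115) and KCNE3 at 0.44 (adjusted p = 0.108). Both showed the same layout: KCNQ1 gave −0.54 and −0.45 on the Cy5 arrays of the 2 extractions and −0.0555 on the Cy3 array. KCNE3 gave 0.61 and 0.52 on those Cy5 arrays and 0.0439 on the Cy3 array. KCNMA1, the large-conductance potassium channel opened by calcium, was at −0.36 with −0.49, 0.0165 and −0.49 for extraction 1, then extraction 2 in Cy3 and in Cy5. A wider count asked only whether the Cy3 value was nearer 0 than both Cy5 values, whatever their size. This held in 29 members (50.0%), against 49.3% of named genes. It held also for SCN9A and KCNK1, whose Cy3 values of 1.98 and −0.85 were not near 0. Among the settings tried, KCNQ1, KCNE3, KCNMA1 and TRPV2 passed only where the Cy3 array was left out. In a fit with a term for the dye, the same 7 members passed as without it and no others. They were 12.1% of the members, when 13.5% of named genes passed that fit against 9.19% without the term. KCNN3, KCNN4 and KCNJ16 lay between −0.13 and 0.19.

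**Figure D2:**
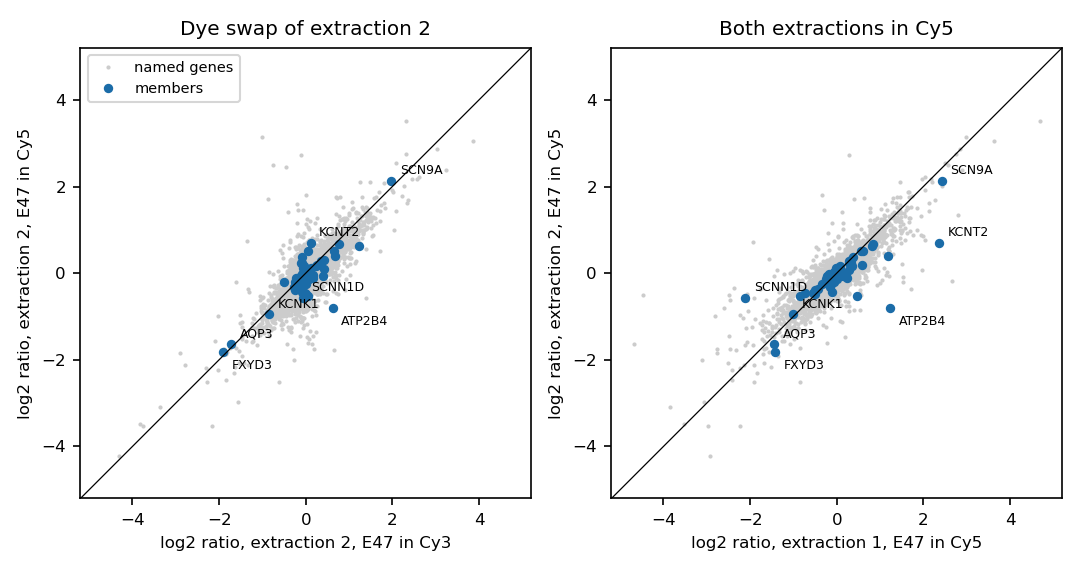
Log2 ratios of E47 over MDCK-CMV of 2 arrays against each other, for the members (blue) and all named genes (grey), with the line of equal values. The left panel sets the dyes of extraction 2 against each other and the right panel the extractions in Cy5. SCN9A, AQP3, FXYD3 and KCNK1 lie near the line in both. KCNT2 and SCNN1D lie off it in the right panel, and ATP2B4 lies off it in both panels.

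Across the 58 members the values of the dye swap correlated with r = 0.83, those of the Cy5 arrays of both extractions with r = 0.78, and extraction 1 with the Cy3 array of extraction 2 with r = 0.72. For all named genes r was 0.76, 0.85 and 0.69 in the same order. These are descriptions across genes that share the arrays and, for the dye swap, the RNA.

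Genes of the sodium pump and its FXYD partners had calls in both directions. Of 6 tested genes 1 rose, 1 fell and 4 did not pass, when 5.34% of all named genes were higher and 3.85% lower. No gene of the catalytic alpha subunit was among those the rule found. ATP1B1, the beta subunit of the pump that is common in kidney and also holds neighbouring epithelial cells together, rose. It had log2 ratios of 0.81 for extraction 1, 1.23 for extraction 2 in Cy3 and 0.62 for extraction 2 in Cy5. The Cy3 array was the highest and all lay above 0. The mean of 0.87 ± 0.09 (moderated SE, n = 2) is 1.82-fold higher in E47 cells (adjusted p = 0.0269). Its call was lost without the Cy5 array of extraction 2, at an adjusted p of 0.0744, and with arrays brought to 1 scale, at 0.0576. The other beta subunits, ATP1B2 and ATP1B3, were at 0.0783 and 0.13 with adjusted p-values of 0.535 and 0.353.

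FXYD3, a small membrane protein of epithelia that binds the pump and modulates it, had the lowest mean of all members. The arrays gave −1.42 for extraction 1, −1.91 for extraction 2 in Cy3 and −1.83 for extraction 2 in Cy5. The mean was −1.65 ± 0.14 (moderated SE, n = 2), which is 3.13-fold lower in E47 cells (adjusted p = 0.0233). This mean joins 2 human clones that did not read alike. Clone 1 gave 0.0665, 0.24 and 0.0947 for extraction 1, then extraction 2 in Cy3 and in Cy5. Clone 2 gave −2.92, −4.05 and −3.75 in that order. The copies of each clone agreed closely, with clone 2 at −4.04 and −4.06 on the Cy3 array.

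Clones were therefore also tested one by one, a step chosen after these values were seen. Clone 2 of FXYD3 had a mean of −3.41 ± 0.27 (moderated SE, n = 2), which is 10.6-fold lower in E47 cells (adjusted p = 0.0196). Clone 1 was at 0.12 (adjusted p = 0.395). Which clone follows the dog transcript is not known from the data, so the size for FXYD3 is uncertain. The call was lost with arrays brought to 1 scale, at an adjusted p of 0.0581. Over 68 clones of members, 7 passed (10.3%), 1 for each of the 7 members named above, against 10.8% of 6731 clones of named genes.

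**Figure D3:**
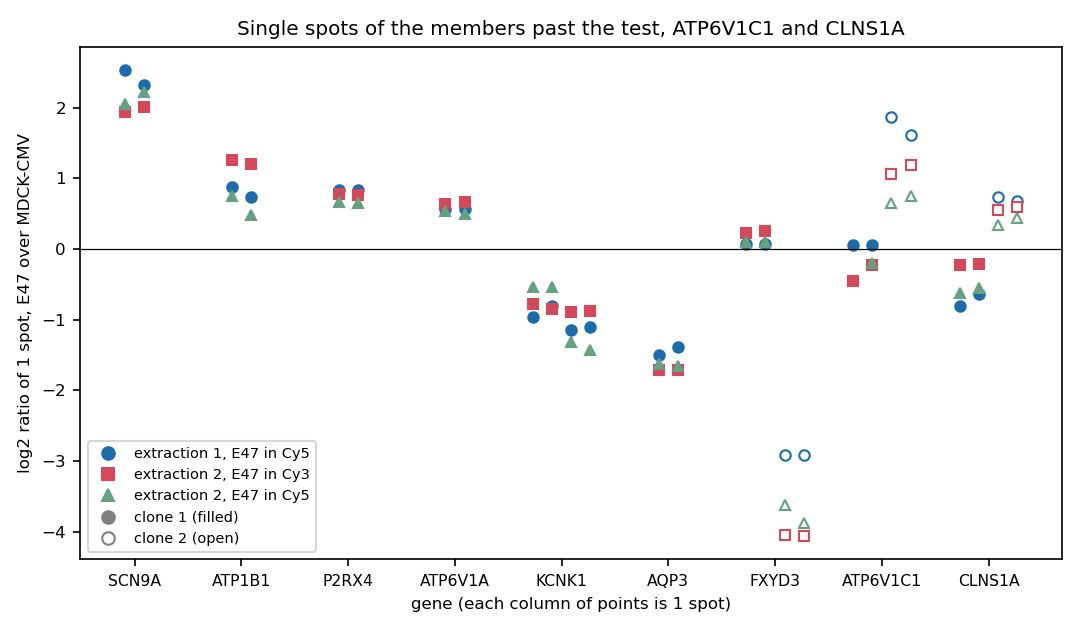
Log2 ratio of E47 over MDCK-CMV (y axis) of each spot of the 7 members that passed and of ATP6V1C1 and CLNS1A, with 1 column of points per spot, colour and shape for the array and open symbols for a second clone. The spots of FXYD3 lie near 0 for clone 1 and between −4.06 and −2.91 for clone 2. Those of the CLNS1A clones lie on opposite sides of 0.

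FXYD2, the gamma subunit of the kidney pump, was at −0.18 (adjusted p = 0.258), and its 2 clones were at −0.22 and −0.16. FXYD1, phospholemman, which regulates the pump in muscle and heart, was below 0 on every array, between −0.34 and −0.0909 (adjusted p = 0.162).

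Of the aquaporins, AQP3 fell. It is a channel for water and glycerol in the basolateral membrane of collecting duct cells. AQP3 had −1.44 for extraction 1, −1.72 for extraction 2 in Cy3 and −1.64 for extraction 2 in Cy5. The arrays lay close together, far below 0, and the dyes differed by 0.0770. The mean of −1.56 ± 0.10 (moderated SE, n = 2) is 2.95-fold lower in E47 cells (adjusted p = 0.0197). It ranked 35 from the bottom among named genes, or 35 from the top if the ratio runs the other way. Spots of its 1 clone gave −1.49 and −1.39 in extraction 1, −1.72 and −1.71 with E47 in Cy3, and −1.63 and −1.65 with E47 in Cy5. AQP6, an anion-conducting aquaporin of intracellular vesicles, was at 0.19, and AQP8 was at −0.17, with adjusted p-values of 0.265 and 0.254.

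The V-type proton pump had 12 genes in the limma test, of which 1 was higher, 0 were lower and 11 did not pass. Before adjustment, 4 were higher and 2 lower at p under 0.05, when 35.6% of all named genes were at such a p in either direction and 9.19% passed. ATP6V1A, the catalytic subunit that hydrolyses ATP in the V1 sector, rose. It had 0.56 for extraction 1, 0.65 for extraction 2 in Cy3 and 0.51 for extraction 2 in Cy5. The mean of 0.57 ± 0.08 (moderated SE, n = 2) is 1.49-fold higher in E47 cells (adjusted p = 0.0449), near the threshold. The call was lost without the Cy5 array of extraction 2, at 0.107, without extraction 1, at 0.0519, and with arrays brought to 1 scale, at 0.0601.

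ATP6V1C1, which links the V1 and V0 sectors, had a mean close to that of ATP1B1, at 0.86, but its extractions lay apart and its adjusted p was 0.0813. The arrays gave 1.18 for extraction 1, 0.68 for extraction 2 in Cy3 and 0.40 for extraction 2 in Cy5. Its clones differed: clone 2 was at 1.33 and clone 1 at −0.0769, with adjusted p-values of 0.0558 and 0.637 when tested alone. With 1 setting changed, its adjusted p was 0.0496 with each array as a replicate and 0.0470 with arrays brought to 1 scale. It was 0.0450 with named genes tested alone. In these settings 18.3%, 7.93% and 21.3% of named genes passed, and the first setting counts 2 arrays of the same RNA as separate. ATP6V1C1 did not pass in 11 of 15 settings with a test, and its highest adjusted p was 0.110, with a term for the dye. ATP6V1F, a small V1 subunit, lay at −0.41 (adjusted p = 0.0907), and it was below 0 on all arrays. The other V1 members, ATP6V1B2 and ATP6V1G1, were at 0.11 and 0.0287.

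In the V0 sector, which carries protons through the membrane, the ring subunit ATP6V0C was at 0.34 (adjusted p = 0.0981), ATP6V0E1 at 0.28 and the subunit ATP6V0A1 at −0.30. The other V0 members, ATP6V0B and ATP6V0D1, were at −0.0558 and −0.0189. The median was 0.11 over 5 V1 members and −0.0189 over 5 V0 members. The accessory proteins ATP6AP1 and ATP6AP2 were at 0.0768 and 0.11. Subunits of 1 complex thus had ratios from −0.41 to 0.86 with both signs among them.

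None of the 4 calcium pump genes passed limma, when 9.19% of all named genes did. None was at an unadjusted p under 0.05, against 35.6% of named genes, and so few genes say little about the family. ATP2B4, which exports calcium across the plasma membrane, was at 1.24 for extraction 1, 0.63 for extraction 2 in Cy3 and −0.81 for extraction 2 in Cy5. The last value came from spots of 1 clone at −2.43 and 0.80, the widest disagreement among duplicate spots of the members. Its mean of 0.57 had an adjusted p of 0.322. ATP2B3, of the same family, was at 0.0044. The endoplasmic reticulum pump ATP2A3 and the Golgi pump ATP2C1 were at −0.14 each.

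P2RX4 was the ligand-gated channel that passed. It is a cation channel opened by extracellular ATP, found in epithelia and immune cells. Its values were 0.83 for extraction 1, 0.77 for extraction 2 in Cy3 and 0.66 for extraction 2 in Cy5. They differed little between extractions or dyes. The mean of 0.77 ± 0.09 (moderated SE, n = 2) is 1.71-fold higher in E47 cells (adjusted p = 0.0315), and leaving out the Cy5 array of extraction 2 gave 0.80 (adjusted p = 0.0681). P2RX1, its relative of smooth muscle and platelets, was at 0.0144 (adjusted p = 0.916).

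The other 6 tested ligand-gated receptors are best known from neurons or sensory cells. GRIA3, GRIK4 and GRIN1, subunits of glutamate receptors, were at 0.10, −0.22 and −0.49. GRIN1 gave −0.74 for extraction 1, −0.0234 for extraction 2 in Cy3 and −0.45 for extraction 2 in Cy5 (adjusted p = 0.137). The GABA receptor subunits GABRD and GABRE and the nicotinic subunit CHRNA10 lay between −0.0955 and −0.0212.

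No member of the chloride, TRP or calcium channels passed limma, nor did VDAC1, when 9.19% of all named genes did. Only 4 chloride, 3 TRP and 2 calcium channel genes were tested. At an unadjusted p under 0.05 were 1 chloride channel, CLCN6, and 1 TRP channel, TRPV2, when 35.6% of named genes were. CLCN6, a chloride and proton exchanger of late endosomes, was at 0.29 with values of 0.28, 0.34 and 0.27 for extraction 1, then extraction 2 in Cy3 and in Cy5. Its adjusted p was 0.118. CLIC1 and CLIC2, intracellular chloride channel proteins, were at 0.0567 and 0.0708.

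CLNS1A, which is linked to the swelling-activated chloride current and to assembly of splicing particles, had a mean of 0.0152 that hid 2 opposite clones. Clone 1 gave −0.72, −0.22 and −0.59 for extraction 1, then extraction 2 in Cy3 and in Cy5, and clone 2 gave 0.71, 0.57 and 0.38. Tested alone, these clones had means of −0.56 and 0.59 and adjusted p-values of 0.0745 and 0.0558. The mean of CLNS1A therefore describes neither clone. Several clones were tested for 10 members, 5 of which had clones on opposite sides of 0.

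TRPV2, a cation channel of the vanilloid family, was at −0.57, with −0.86 for extraction 1, −0.0257 for extraction 2 in Cy3 and −0.53 for extraction 2 in Cy5. Its adjusted p was 0.127. TRPM1 and TRPC5 were at −0.11 and 0.0269, and the clones of TRPM1 were at 0.15 and −0.37. Of the calcium channel subunits, the pore subunit CACNA1E was at 0.16 and the auxiliary subunit CACNA2D2 at −0.18. VDAC1, the porin of the outer mitochondrial membrane, was at 0.17 (adjusted p = 0.282).

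The rule's other 9 genes had no spot with a value on all 3 arrays and were not tested. ATP6V1B1, a V1 subunit of acid-secreting tubule cells, and TRPM5 had no value on any array. CACNA1C, CACNB3, CLIC3, KCNA3 and KCNA5 had values on the Cy3 array alone, between −0.25 and −0.0057. KCNAB2 had −0.35 for extraction 1 and −0.45 for extraction 2 in Cy5. GRIN2D had −3.38 for extraction 1, from 1 of 6 spots, and −0.83 for extraction 2 in Cy3.

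Ion transport also depends on anchors, regulators and carriers, which were read from a list of 84 further genes. Of these 21 were tested: 1 rose, 3 fell and 17 did not pass, with a median of −0.0423. Of all named genes 5.34% were higher and 3.85% lower, and the list was not tested against them. The membrane skeleton proteins SPTBN1, a beta spectrin, and ANK3, ankyrin-G, both fell. Spectrin and ankyrin hold channels and the sodium pump at the lateral membrane. SPTBN1 had −1.01 for extraction 1, −0.92 for extraction 2 in Cy3 and −1.08 for extraction 2 in Cy5, with a mean of −1.0 (adjusted p = 0.0217). ANK3 had −0.79, −0.79 and −0.80 in that order, with a mean of −0.79 (adjusted p = 0.0281). The spectrin alpha chain SPTAN1 was at −0.0777 (adjusted p = 0.539).

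SGK1, a kinase that raises the number of epithelial sodium channels at the surface, fell. It had −1.09 for extraction 1, −0.79 for extraction 2 in Cy3 and −0.63 for extraction 2 in Cy5, with a mean of −0.90 (adjusted p = 0.0442). NEDD4, a ubiquitin ligase that removes those channels, rose. It had 0.76, 0.58 and 0.78 in that order, with a mean of 0.72 (adjusted p = 0.0334). Each array of both genes lay on the side of its mean. NEDD4L, its relative and the main ligase for the channel in kidney, was at −0.11 (adjusted p = 0.410). The chloride carriers SLC12A2 and SLC12A4 were at −0.34 and −0.42 and the calcium release channel ITPR1 at 0.87, with adjusted p-values of 0.153, 0.117 and 0.0854. The listed genes given here that did not pass, SPTAN1 included, were chosen after their values were seen.

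Markers of kidney epithelium and of mesenchymal cells also differed, in lists chosen with earlier results of these data known. Of 8 tested epithelial markers 8 fell, with ratios from −3.59 for CDH1 to −0.92 for CLDN4. CDH1 also served above for the direction of the ratio, so its fall is not a separate result. Of 7 mesenchymal markers 5 rose, led by SPARC at 2.85, and 2 did not pass, CDH2 at 0.0182 and ACTA2 at −0.11. Of all named genes 5.34% were higher and 3.85% lower. Of 3 neuronal markers none passed limma, and 1, TUBB3 at 0.57, was at an unadjusted p under 0.05. ENO2 and SNAP25 were at −0.29 and 0.23. Of 3 muscle markers ACTC1 fell to −1.06 and 2 did not pass. The part of these markers in the ion transport values was not tested.

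**Figure D4:**
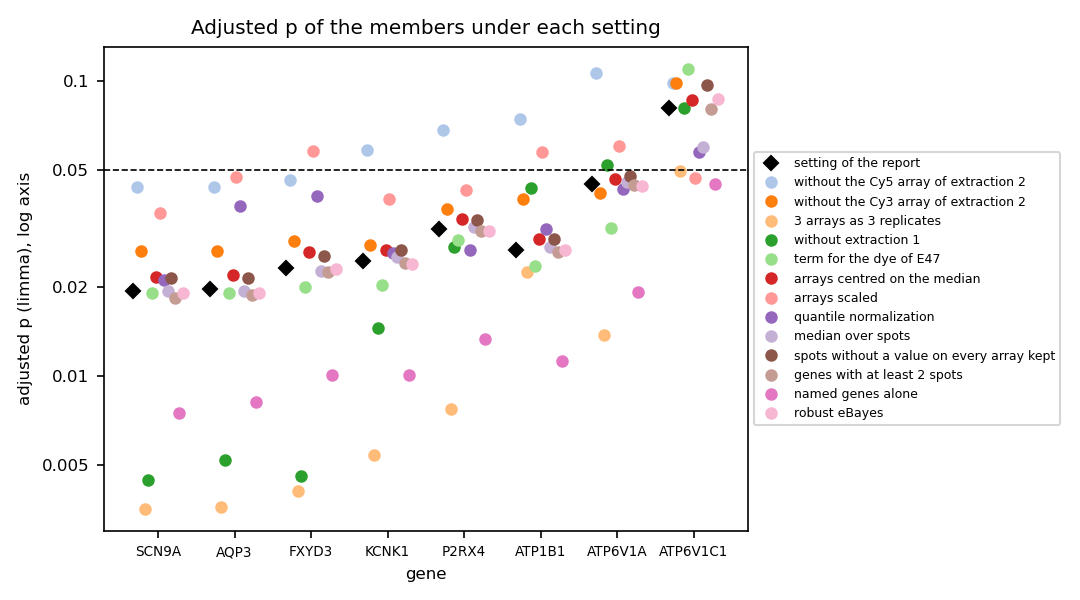
Adjusted p of limma (y axis, log scale) for the 7 members that passed and for ATP6V1C1 (x axis), with a black diamond for the values given in the text and a coloured point for each other setting; the dashed line is the threshold of 0.05. SCN9A and AQP3 stay under the line in every setting shown, with highest values of 0.0438 and 0.0475, and ATP6V1A crosses it under 3.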

How the data were processed

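The members and gene lists were chosen with earlier results of these data known. Amplified RNA was labelled, per the labels. The deposited values were taken as log2 ratios of E47 over control, with a column for each array. How the authors corrected background and normalized, and which log base and direction they used, is not stated in the labels. Medians of the columns were −0.0051, 0.0027 and 7.67e-04, close to 0. Base 10 was set aside because the largest value, 7.80, is above 4.82, the log10 range of a 16-bit scanner. Gene symbols came from the platform annotation, and each of the 67 symbols was found among dog genes of assembly UU_Cfam_GSD_1.0, which served for names only.

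Of 27648 spots the arrays gave values for 25537, 25282 and 24771 (extraction 1, extraction 2 in Cy3, extraction 2 in Cy5), and 23275 spots had a value on all 3 and were used. Each gene took the mean of its spots on an array. Spots with no symbol or several were kept as 8500 unnamed features. The dye swap was averaged. The ratios of 14008 features were set against 0, 2-sided, using limma 3.58.1 (lmFit, eBayes) under R 4.3.3. P-values were adjusted over all features by Benjamini-Hochberg, and the threshold was 0.05. This left 1 residual degree of freedom, and the prior had 2.71. The control was taken as a common RNA, so its own spread is left out. Precision is limited by the 3 arrays. The fit was tested on simulated data.

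Genes were named by rule: every member that passed, up to 30, the highest and lowest of each of 11 role groups, and up to 8 partners that passed. Other members were named to account for all of them. Alternatives changed replicates, dye, scaling, spots, features, eBayes and threshold. Figures were drawn with matplotlib 3.10.9.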

Additional observations from a re-analysis of the deposited data

How the results depend on the processing

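The counts of members that passed depended on the dye swap. Without the Cy5 array of extraction 2, 3 members passed, 1 of them higher and 2 lower, when 1.98% of named genes passed. Without the Cy3 array of extraction 2, 11 passed, 5 higher and 6 lower, when 16.7% of named genes did. Across the other settings the count lay between 5 and 10 against 7, the number of members with a passing clone included. The share of named genes moved as well. With arrays brought to 1 scale, 5 members (8.62%) passed, against 7.93% of named genes. The count was 10 (17.2%) with named genes tested alone and at a threshold of 0.10, against 21.3% and 22.6% of named genes. The median log2 ratio over the members, 0.0094, was −0.0155 without the Cy3 array, −0.0189 with genes of at least 2 spots, −0.0298 without extraction 1 and −0.0042 in extraction 1 alone, where no test was possible. ATP2B4 was at −0.0938 without extraction 1 and 1.24 in extraction 1 alone. The first of these values takes in its duplicate spots at −2.43 and 0.80 on the Cy5 array of extraction 2. CLNS1A was at −0.0545 without the Cy3 array, 0.0380 without extraction 1 and −0.0076 in extraction 1 alone. The causes were not tested. SCN9A and AQP3 passed under all 15 settings with a test, and FXYD3, KCNK1 and P2RX4 under 14 of them. The threshold of 0.10 and the reading as natural logarithms are among these settings and could not lose a call. E47 and control RNA were already paired within each array by the ratio. No other pairing was possible because the control has no samples of its own. The test without extraction 1 rests on 2 arrays of the same RNA. Signal over background was not used here, so dim spots were not filtered.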
